A study of Homo sapiens with 5 samples.

Results

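The replication-dependent histone genes of the clusters on chromosomes 6 and 1 were examined in the ovarian clear cell carcinoma line TOV21G, which carries mutated ARID1A, and in clones of it that grew resistant to the EZH2 inhibitor GSK126 (EIR clones). Members were the protein-coding histone genes annotated in GRCh37 on chromosome 6 between 26 and 28 Mb and on chromosome 1 between 149.7 and 150 Mb and between 228.6 and 228.7 Mb. Of 64 such genes, 32 had a row in the count table of 30476 genes under their GENCODE 44 identifier, and the other 32 were not analysed here. All 6 genes of the linker histone H1 had a row, as did 8 of 16 H2A, 9 of 15 H2B, 5 of 14 H3 and 4 of 13 H4 genes. Sums given below for a histone type therefore cover the genes with a row and not the whole type.

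There were 5 libraries of total RNA: 1 of parental TOV21G without drug, 1 each of EIR clone 3 and clone 4 without drug at sampling, and 1 each of the same clones treated with GSK126. All 4 EIR libraries descend from cells selected in GSK126 raised from 5 to 20 uM before clones were picked. Each clone is 1 clonal line, the parental state has 1 library, and the dose and time of the treatment of the sequenced cultures were not given in the sources used here. Differences between EIR and parental cells cannot be told apart from differences between this parental library and any other, and p-values measure the spread among the EIR libraries, which may be partly technical.

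Histone genes of these clusters supply the bulk of chromatin protein during S phase, when new DNA has to be packaged. H2A, H2B, H3 and H4 form the nucleosome core and H1 binds the linker DNA between nucleosomes. Their messages usually have no poly(A) tail and instead end in a conserved stem-loop that is bound by SLBP. A library of total RNA therefore counts these messages without depending on a poly(A) tail. In a bulk library, fewer cells in S phase and less histone RNA per cell cannot be told apart.

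The stem-loop was searched for on the coding strand as GG, any pair of bases, CTTTT, any base, AG, any pair of bases and CC, within 150 bases after the stop codon. It was found in 32 of 32 members and in 67 of 20175 protein-coding genes (0.332%), and it began 26 to 71 bases after the stop codon. The stem was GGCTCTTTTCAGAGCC in 19 members and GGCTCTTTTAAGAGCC in 7, while all 4 H4 genes carried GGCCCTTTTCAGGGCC. The stem-loops of genes on which the results turn are shown with 6 bases on each side, 5' to 3' on the gene's strand from GRCh37. The 16-base stem-loop is in capitals.
H1-2, chr6:26055966-26055993, minus strand: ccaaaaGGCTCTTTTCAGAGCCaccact
H1-3, chr6:26234439-26234466, minus strand: ttaaacGGCTCTTTTCAGAGCCacccac
H2AC21, chr1:149859017-149859044, minus strand: cccaaaGGCTCTTTTAAGAGCCaccaaa
H2AC6, chr6:26124891-26124918, plus strand: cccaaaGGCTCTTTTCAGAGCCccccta
H2BC21, chr1:149857732-149857759, minus strand: tccaaaGGCTCTTTTCAGAGCCacccac
H3C14, chr1:149812258-149812285, minus strand: ccaaaaGGCTCTTTTCAGAGCCacccac
H4C11, chr6:27792231-27792258, plus strand: ataaaaGGCCCTTTTCAGGGCCacccta
H4C8, chr6:26285353-26285380, minus strand: accaaaGGCCCTTTTCAGGGCCgcccac
The pair with the largest changes, H1-3 and H4C8, thus carried the same 16 bases as other members of their types. All of these stem-loops lie in the 3' untranslated region of a single-exon transcript. The last bases of the H1-2, H1-3, H2AC21 and H3C14 windows run past the annotated gene end. The annotated H2BC21 transcript continues beyond its window.

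Promoters of 300 bases, 250 before to 50 after the RefSeq start on GRCh38.p14, were matched for 30 members. The CCAAT box was present on either strand in 27 of 30 member promoters, against 34.6% of all 35116 promoters, and TATAAA in 21 of 30, against 11.5%. The H1 box AAACACA, a motif of linker histone promoters, was present in 9 of 30 member promoters and in 5.6% of all promoters. These were 6 of 6 H1 promoters, 2 of 4 H3 promoters (H3C14 and H3C15) and 1 of 8 H2A promoters. In the H3 and H2A promoters the match lay after the start. The octamer ATTTGCAT was in 10 of 30 member promoters, all of H2A or H2B genes, against 1.8%. TTTNGCGC, an E2F-like motif, was in 6 of 30 member promoters and in 1.8% of all. H2A and H2B genes that lie head to head have overlapping windows, so the same site can count for both genes. This holds for the octamer of H2AC6 and H2BC4, of H2AC11 and H2BC11, and of H2AC20 and H2BC21. The promoters of the 3 most abundant H1 genes and of H4C8 are shown 5' to 3' on the gene's strand, with matches to the H1, CCAAT and TATA boxes on either strand in capitals.
H1-2, chr6:26056421-26056720, minus strand: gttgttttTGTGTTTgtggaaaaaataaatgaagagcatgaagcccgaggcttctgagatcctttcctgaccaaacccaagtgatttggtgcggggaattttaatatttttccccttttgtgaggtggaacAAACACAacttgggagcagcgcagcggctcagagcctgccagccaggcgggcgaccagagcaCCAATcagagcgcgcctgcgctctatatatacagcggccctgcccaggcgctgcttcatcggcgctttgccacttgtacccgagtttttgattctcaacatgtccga
H1-3, chr6:26234938-26235237, minus strand: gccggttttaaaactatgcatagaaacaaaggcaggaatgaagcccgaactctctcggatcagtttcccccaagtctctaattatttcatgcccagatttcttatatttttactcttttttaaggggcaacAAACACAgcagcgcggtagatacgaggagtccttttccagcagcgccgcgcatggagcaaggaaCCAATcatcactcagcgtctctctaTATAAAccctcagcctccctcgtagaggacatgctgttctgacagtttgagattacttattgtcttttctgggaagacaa
H1-4, chr6:26156079-26156378, plus strand: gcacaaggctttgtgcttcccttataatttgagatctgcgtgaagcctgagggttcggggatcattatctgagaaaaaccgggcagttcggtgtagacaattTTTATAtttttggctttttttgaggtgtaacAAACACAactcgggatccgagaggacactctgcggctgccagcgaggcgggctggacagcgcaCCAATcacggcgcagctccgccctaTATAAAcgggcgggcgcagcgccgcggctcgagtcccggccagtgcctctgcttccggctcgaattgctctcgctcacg
H4C8, chr6:26285485-26285784, minus strand: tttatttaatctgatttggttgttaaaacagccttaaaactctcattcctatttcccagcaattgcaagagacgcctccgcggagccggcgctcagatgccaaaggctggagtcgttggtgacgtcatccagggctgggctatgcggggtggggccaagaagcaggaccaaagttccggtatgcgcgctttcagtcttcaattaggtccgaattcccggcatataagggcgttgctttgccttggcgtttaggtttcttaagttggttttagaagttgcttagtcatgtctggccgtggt
All 3 H1 promoters hold an H1 box at a similar distance from the start and a CCAAT box nearer to it. The H4C8 window holds none of the 3 motifs. Of the 3 H4 promoters matched, none holds a CCAAT or H1 box and 2 hold TATAAA.

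Library totals ranged from 25479238 to 30764963 estimated counts. The epithelial and Mullerian genes PAX8, KRT8 and KRT18 had 3031 or more counts in every library, whereas EPCAM had 398 counts in the parental library, 426 and 498 in clone 3, and 0 and 1 in clone 4. CDH1 had at most 6 counts in parental and clone 4 libraries, and the clear cell marker NAPSA at most 6 in the same libraries. The 7 markers with a row for leukocytes, endothelium and smooth muscle had 0 to 27 counts each.

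**Figure D1:**
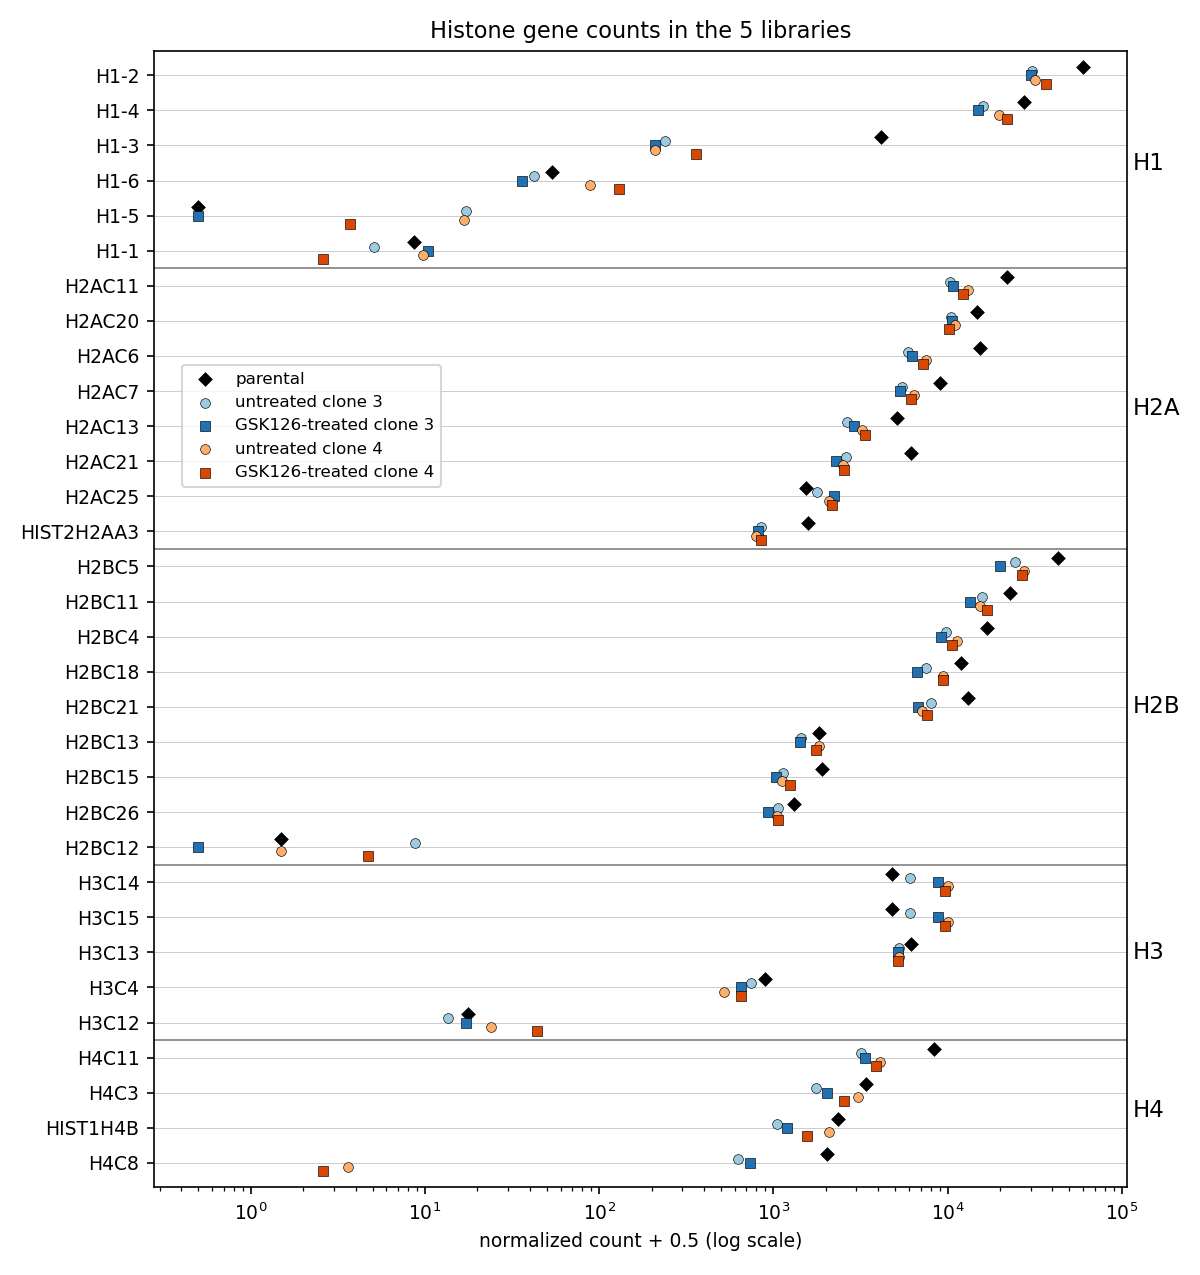
Normalized counts (plus 0.5, log scale) of all 32 histone genes in each library, ordered by histone type and mean level; each symbol is 1 library. Black parental diamonds lie to the right of the 4 EIR symbols for most genes, H1-3 shows a wide gap between the parental and all EIR symbols, and H4C8 splits between clone 3 and clone 4.

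Per kilobase of transcript, H2BC5 and H1-2 were the most abundant members, with parental levels of 88793.6 and 82186.6 normalized counts per kb and EIR means of 50760.9 and 44193.1. H2BC11, H2AC11, H2BC4 and H1-4 followed in the parental library, between 34886.6 and 47291.4 normalized counts per kb. Averaged over the 5 libraries, 27 of 32 members reached 100 normalized counts, and H1-1, H1-5, H1-6, H2BC12 and H3C12 stayed below that level. The plot of counts by gene places the parental symbol apart from the EIR symbols for most of the abundant genes.

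Histone gene counts as a whole were lower in resistant than in parental cells. Summed over the 32 members, normalized counts were 312824 in the parental library, 180629 and 208388 in untreated clones 3 and 4, and 176554 and 212667 in the treated clones. Every EIR library thus held between 56.4% and 68% of the parental sum. As a share of all counts, members took 1.041% of the parental library (Wilson 95% interval 1.037 to 1.045) and from 0.61% (0.607 to 0.613) to 0.789% (0.786 to 0.792) of the EIR libraries. These intervals cover counting error only.

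Of 27 members with a mean of at least 100, 24 were lower than parental in all 4 EIR libraries. The other 3 were higher in all 4 (H2AC25, H3C14 and H3C15). The share of all genes lower or higher in all 4 was not computed, so these counts have no background beside them. In the DESeq2 fit over the whole table, 29 members were tested, of which 15 were lower and 2 higher in EIR cells at an adjusted p under 0.05. Over all 16288 genes tested, 13.2% were called lower and 12.4% higher. The median log2 fold change of the 27 members was -0.68, and that of all genes tested was 0.00.

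The ratios of EIR to parental counts moved with GC content over the 11377 genes with a GC value and a mean of 100 or more normalized counts. The GC content of a gene was the median over all its annotated transcripts, which can differ from that of its stem-loop message. The median log2 ratio was 0.51 for those below 40% GC, 0.06 from 40 to 50%, -0.28 from 50 to 60% and -0.49 above 60%, and the 32 members fell into these bins as 0, 7, 18 and 7. With offsets that remove this trend, the median of the 27 members was -0.42, 6 members were called lower (H1-3, H2AC6, H2AC21, H2BC4, H2BC15 and H2BC21), and H2AC25, H3C14 and H3C15 were called higher. Over all genes in that fit 9.04% were called lower and 9.89% higher, so 3 higher calls among 29 members lie near the background. The quasi-likelihood test of edgeR called 9 members lower and none higher, with 19 at an unadjusted p under 0.05, where 3.6% of all 30476 genes were called lower, 2.13% higher and 6094 genes had an unadjusted p under 0.05. The 4 EIR libraries are 2 clones sampled 2 times each. With the libraries of each clone summed, 9 members were lower (H1-2, H1-3, H2AC6, H2AC11, H2AC21, HIST2H2AA3, H2BC5, H2BC21 and H4C11) and none higher, with 16 at an unadjusted p under 0.05, beside 5.97% of all genes lower and 6.22% higher. H1-3, H2AC6, H2AC21 and H2BC21 were called in each of the fits that kept members apart.

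**Figure D2:**
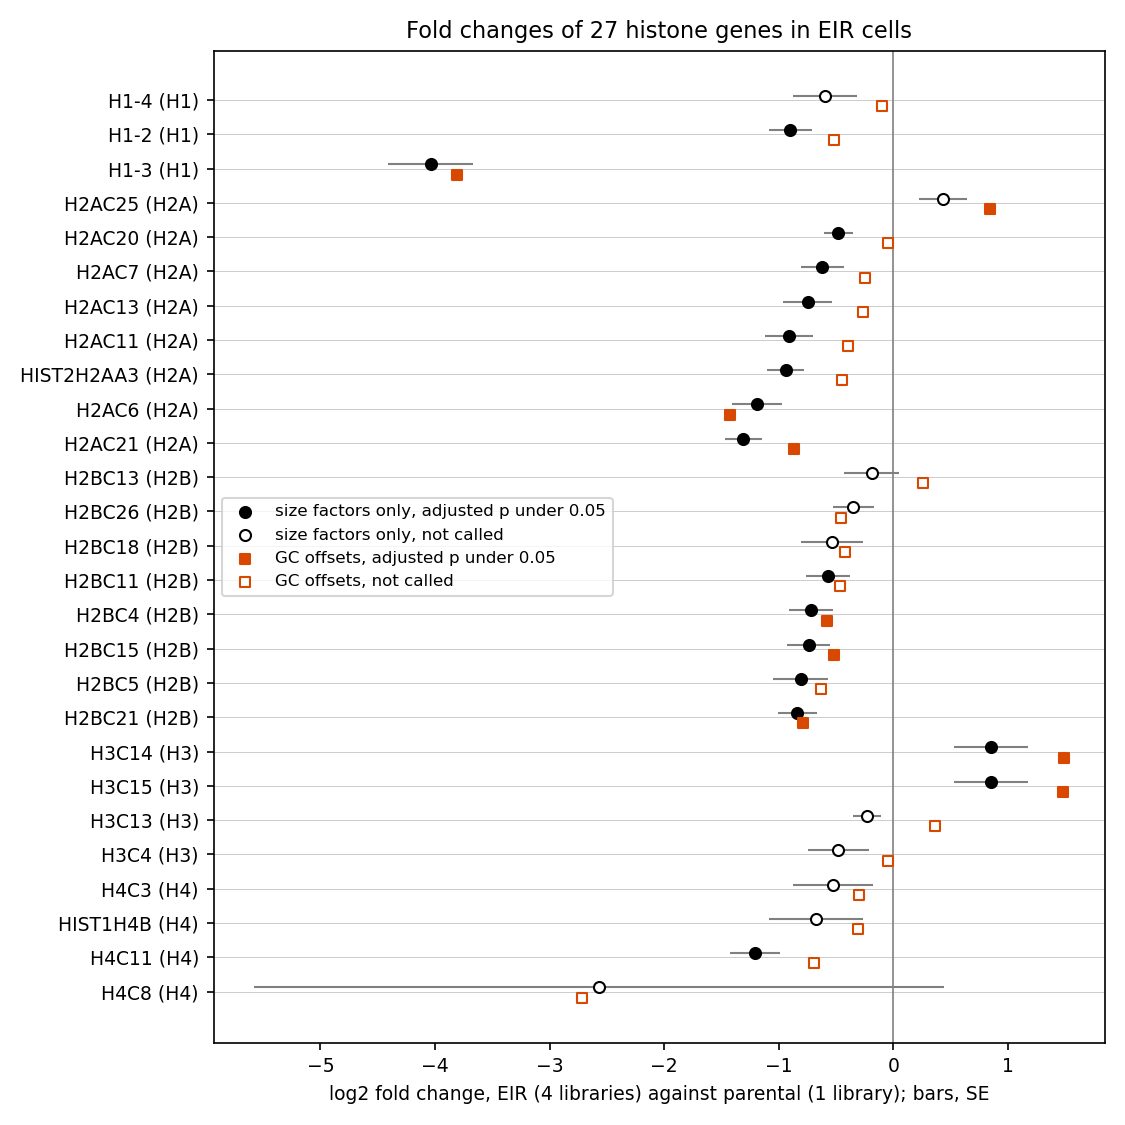
Log2 fold change of the 27 histone genes whose mean over the libraries reached 100 normalized counts, EIR (4 libraries) against parental (1 library), by histone type; circles with SE bars use size factors only and squares add GC offsets, filled where the adjusted p was under 0.05. Most squares lie to the right of their circles, H1-3 stays at -4.04 and -3.81, and H3C14 and H3C15 lie right of 0 in both.

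Among linker histones, which compact chromatin fibres, H1-3 showed the largest called change of any member in this comparison. H1-3 (ENSG00000124575, chr6:26234440-26235215) had 4167.7 normalized counts in the parental library and 237.9, 207.5, 207.5 and 360.8 in untreated clone 3, untreated clone 4, treated clone 3 and treated clone 4. The parental value was above all EIR values, and the log2 fold change was -4.04 (SE 0.37, adjusted p = 7.719e-25 by DESeq2, edgeR adjusted p = 0.001005), or 16.5-fold lower. H1-3 made up 4.54% of H1 counts in the parental library (Wilson 95% interval 4.41 to 4.68) and from 0.4% (0.349 to 0.459) to 0.61% (0.549 to 0.678) in the EIR libraries.

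H1-2, the most abundant linker histone gene here, had 60078.4 normalized counts in the parental library and 30659.6, 31707.9, 29998.8 and 36854.3 in the EIR libraries in the same order. Its log2 fold change was -0.90 (SE 0.19, adjusted p = 4.494e-05 by DESeq2), and the call was lost with GC offsets (adjusted p = 0.07336) and in edgeR (0.0508). H1-4 had 27455.8 normalized counts in the parental library and 15965.3, 19798.9, 14886.3 and 21799.4 in the EIR libraries. All 4 EIR values lay below the parental one, but the difference did not pass the test (log2 fold change -0.60, SE 0.28, adjusted p = 0.09459 by DESeq2). H1-2 held 65.5% of H1 counts in the parental library (Wilson 95% interval 65.2 to 65.8) and 61.2% to 66.5% in EIR libraries. H1-4 held 29.9% (29.6 to 30.2) and 33% to 38.2%. The other linker genes, H1-1, H1-5 and the testis-enriched H1-6, had at most 130.1 normalized counts in any library. Against parental cells H1-6 was not called by DESeq2 (adjusted p = 0.7343), and H1-1 and H1-5 had no adjusted p.

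**Figure D3:**
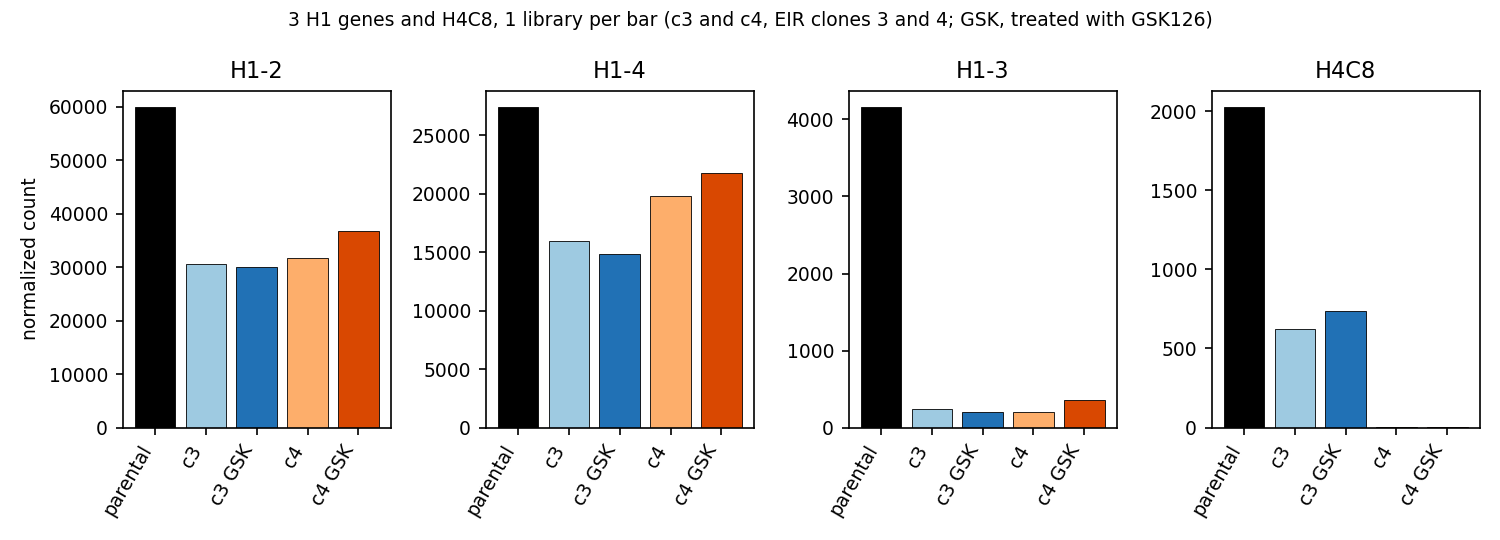
Normalized counts of H1-2, H1-4, H1-3 and H4C8 (4 panels, each with its own axis from 0), 1 bar per library: parental, then clone 3 and clone 4 without and with GSK126. H1-3 is high in parental cells alone (4167.7 against at most 360.8), and H4C8 is near 0 in both clone 4 libraries.

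In the H2A group, 7 of 8 genes were called lower and 1 was not called, beside 13.2% of all genes called lower. The median log2 fold change of the 8 was -0.83. H2AC21 had 6171 normalized counts in the parental library and 2619.1, 2500.4, 2280.9 and 2545.5 in the EIR libraries, so that every EIR value lay under 0.5 of the parental one. It fell by 1.31 on the log2 scale (SE 0.16, adjusted p = 1.272e-13 by DESeq2), and by 0.87 with GC offsets (adjusted p = 0.0001391). H2AC6 went from 15375.6 in the parental library to 5896.4, 7543, 6248.8 and 7268.2, a log2 fold change of -1.19 (SE 0.22, adjusted p = 1.145e-06 by DESeq2). By the median over annotated transcripts, H2AC6 has the lowest GC content of the members, 42%. Its log2 fold change with GC offsets, which rest on that value, was -1.43 (adjusted p = 1.77e-08 by DESeq2).

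H2AC11 and H2AC13, which encode the same protein, were lower by log2 fold changes of -0.91 and -0.75 (adjusted p = 0.000153 and 0.002497 by DESeq2). Summed as 1 feature they were at -0.88 (SE 0.20, adjusted p = 0.0002177 by DESeq2). HIST2H2AA3 (listed by RefSeq as H2AC18) had 1587.3 normalized counts in the parental library and 843.4, 794.5, 815.3 and 853.8 in the EIR libraries. It was at -0.94 (SE 0.16, adjusted p = 3.269e-07 by DESeq2). None of H2AC11, H2AC13 and HIST2H2AA3 passed with GC offsets (adjusted p = 0.3398, 0.5236 and 0.07085). H2AC20 and H2AC7 were called at -0.48 and -0.62 and were likewise not called with GC offsets. H2AC25 of the 1q42 cluster went the other way, with 1538 normalized counts in the parental library and 1783.1, 2085.4, 2236.4 and 2163.5 in the EIR libraries. Its log2 fold change was 0.43 (SE 0.21, adjusted p = 0.1173 by DESeq2) and reached 0.84 with GC offsets (adjusted p = 0.002753).

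In the H2B group, 5 of 8 tested genes were called lower, beside 13.2% of all genes, with a median log2 fold change of -0.64. H2BC21 had 13149.8 normalized counts in the parental library and 7980.4, 7107.6, 6738 and 7617.4 in the EIR libraries, and its log2 fold change was -0.84 (SE 0.17, adjusted p = 2.499e-05 by DESeq2), or -0.79 with GC offsets (adjusted p = 0.0001379). H2BC5, the member with the most counts per kb, had 43153.7 normalized counts in the parental library and 24278.1, 27403.9, 20081.6 and 26915.7 in the EIR libraries (fitted log2 fold change -0.81, SE 0.24, adjusted p = 0.004832 by DESeq2). The call of H2BC5 was lost with GC offsets (adjusted p = 0.06842). H2BC4, H2BC11 and H2BC15 were called at -0.72, -0.57 and -0.74, of which H2BC11 was not called with GC offsets (adjusted p = 0.08426), in edgeR (0.1476), with clones summed, or when untreated clone 3, untreated clone 4 or treated clone 3 was left out. H2BC4 was not called in edgeR (adjusted p = 0.0664), and neither H2BC4 nor H2BC15 was called with clones summed. H2BC13, H2BC18 and H2BC26 were not called, at -0.19, -0.54 and -0.35. H2BC12 had at most 9 counts in any library and no adjusted p.

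Many H2A and H2B genes lie head to head, and 5 such pairs among the members had starts 219 to 248 bases apart. Log2 fold changes of the H2B and H2A gene were -0.57 and -0.91 for H2BC11 and H2AC11, -0.72 and -1.19 for H2BC4 and H2AC6, and -0.19 and -0.75 for H2BC13 and H2AC13. They were -0.84 and -0.48 for H2BC21 and H2AC20, and -0.35 and 0.43 for H2BC26 and H2AC25. Both genes of a pair were called lower in 3 of the 5 pairs, beside 13.2% of all genes taken singly. The H2A gene was lower than its partner in 3 of 5 by fitted value, a difference that was not tested.

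H3C14 and H3C15 were the members called higher in EIR cells, while H3C13 and H3C4 lay below the parental value in all 4 EIR libraries. H3C14 and H3C15, which encode one protein, had the same estimated counts in every library, so the 2 rows carry 1 measurement. Each had 4789.1 normalized counts in the parental library and 6086.2, 10084.1, 8764.9 and 9698.4 in the EIR libraries, which gave a log2 fold change of 0.85 (SE 0.32, adjusted p = 0.0329 by DESeq2, edgeR adjusted p = 0.1548). H3C13, which encodes the same protein, had 6143.8 in the parental library and 5202 to 5238.9 in the EIR libraries, and was not called (-0.23, SE 0.12, adjusted p = 0.158 by DESeq2). Its direction turned with GC offsets (0.36, adjusted p = 0.1884). Summed as 1 feature, the 3 genes were at 0.52 (SE 0.26, adjusted p = 0.1398 by DESeq2) and were not called. H3C4 was at -0.48 (adjusted p = 0.1843). The H3 genes had GC contents from 58.4% to 65.3%, the upper value being the highest of any member.

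Among H4 genes, which encode 1 protein in all 4 cases, H4C11 had 8394.9 normalized counts in the parental library and 3169, 4113.8, 3338.4 and 3862.6 in the EIR libraries. It was lower by a log2 fold change of -1.21 (SE 0.22, adjusted p = 1.436e-06 by DESeq2), and not called with GC offsets (-0.69, adjusted p = 0.08498). H4C3 and HIST1H4B (listed by RefSeq as H4C2) were at -0.53 and -0.68 and were not called (adjusted p = 0.2766 and 0.2227 by DESeq2). Summed as 1 feature, the 4 H4 genes were at -1.05 (SE 0.24, adjusted p = 0.0001895 by DESeq2).

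**Figure D4:**
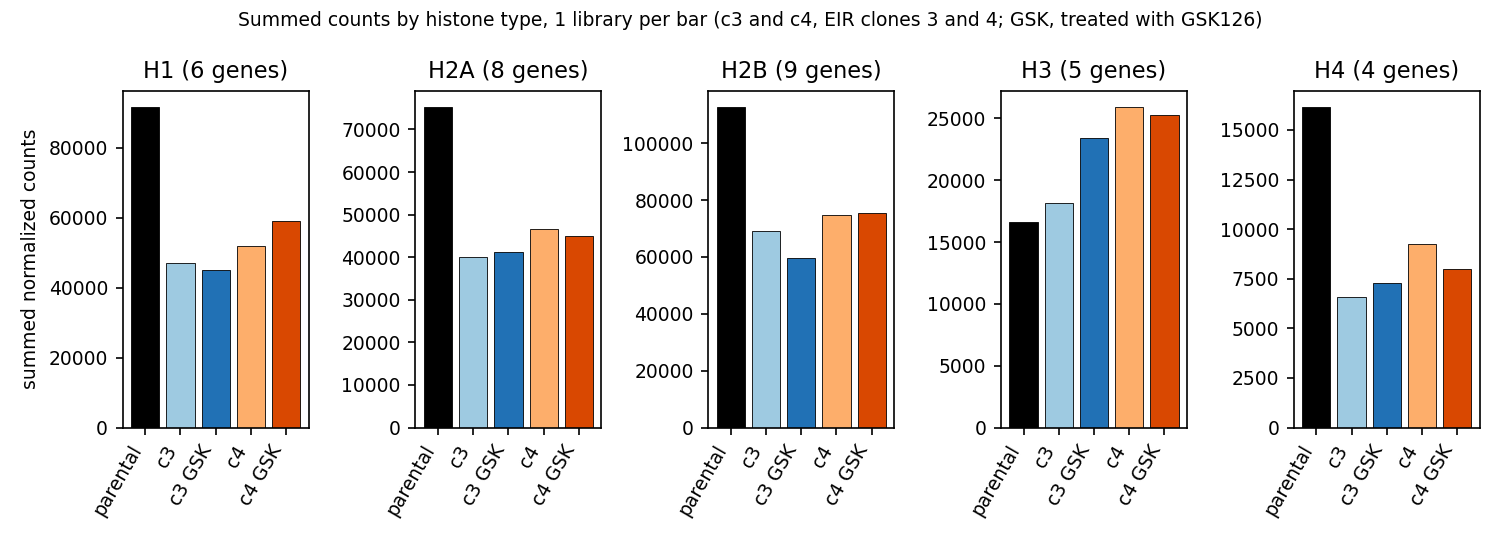
Summed normalized counts of the members of each histone type, 1 bar per library, each panel with its own axis from 0. H1, H2A, H2B and H4 bars of all 4 EIR libraries stand below the parental bar, and H3 bars stand above it.

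By type, EIR libraries held 49.2% to 64.5% of the parental sum for H1, 53.1% to 61.9% for H2A, 52.7% to 66.8% for H2B and 40.8% to 57.3% for H4. For H3 they held 109.2% to 156%, which rests on H3C14 and H3C15. With GC offsets the mean log2 ratio of the sums moved from -0.86 to -0.46 for H1, -0.81 to -0.51 for H2A, -0.70 to -0.57 for H2B, -1.06 to -0.72 for H4 and 0.47 to 1.06 for H3. The plot of summed counts by type shows the parental bar outside the range of the EIR bars in each panel. By cluster, the median log2 fold change was -0.72 over 11 genes of the first 6p group, -0.74 over 6 of the second, -0.51 over 8 of 1q21 and 0.04 over 2 of 1q42. With GC offsets these medians were -0.52, -0.44, -0.24 and 0.19.

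The members called between the resistant clones by DESeq2 were all H4 genes, and their number lay near the share of all genes called. With treatment as covariate, 31 members were tested, 1 was called lower and 2 higher in clone 4, where 6.52% of all 17708 genes tested were called lower and 3.3% higher. The median log2 fold change of the members with a mean of at least 100 was 0.22.

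H4C8 (ENSG00000158406, chr6:26277837-26285866) had 2015 estimated counts in the parental library, 675 in untreated and 745 in treated clone 3, and 3 and 2 in clone 4. Its message was thus at the edge of detection in both clone 4 libraries and plain in the other 3. Clone 3 held 262 times the level of clone 4 (exact counting interval 112 to 807) and the parental library 782 times (335 to 2410), and the log2 fold change of clone 4 against clone 3 was -8.04 (SE 0.71, adjusted p = 3.194e-27 by DESeq2, edgeR adjusted p = 4.404e-05). The parental library held 2.99 times the level of clone 3 (2.79 to 3.2), and these intervals cover counting error only. With both clones entered as 1 group against parental cells, H4C8 was not called (log2 fold change -2.57, SE 3.01, adjusted p = 0.5841 by DESeq2).

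HIST1H4B had 1053.6 and 1191.8 normalized counts in untreated and treated clone 3 and 2081.3 and 1562.6 in clone 4 (log2 fold change 0.68, SE 0.21, adjusted p = 0.01892 by DESeq2). H4C3 had 1752.5 and 2041.8 in clone 3 and 3075.2 and 2553.9 in clone 4 (log2 fold change 0.56, SE 0.19, adjusted p = 0.04211 by DESeq2). In both genes the clones did not overlap, a split whose share over all genes was not computed. The edgeR test called neither gene (adjusted p = 0.06387 and 0.09583). Summed as 1 feature, the H4 genes were at 0.30 in clone 4 against clone 3 (SE 0.17, adjusted p = 0.3622 by DESeq2). This sum includes H4C8, which went the other way, so it does not test HIST1H4B and H4C3 alone. With GC offsets 8 members were called higher and 1 lower in clone 4, H1-4 among the higher ones (0.58, adjusted p = 0.0003392), where 5.03% of all genes were called higher and 6.13% lower. The quasi-likelihood test of edgeR called H4C8 lower and the linker gene H1-6 higher (4.26% and 2.01% of all genes). H1-6 had 41.7 and 35.6 normalized counts in untreated and treated clone 3 and 88.5 and 130.1 in clone 4 (log2 fold change 1.47, SE 0.56, adjusted p = 0.07944 by DESeq2 and 0.03468 by edgeR).

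No member was called between treated and untreated clones. All 32 members were tested and 0 were called by DESeq2 and by edgeR, with 1 at an unadjusted p under 0.05 by either tool (by DESeq2, H1-5 with at most 18 counts). Over 29847 genes, 0.00335% were called lower and 0% higher. With the clone as replicate block, 0 members were called, with 1 at an unadjusted p under 0.05, and 0.00335% of genes were called lower and 0.0101% higher. Without H4C8, whose SE was 3.08, log2 fold changes of the 26 members with a mean of at least 100 lay between -0.20 and 0.34, with SE from 0.18 to 0.41.

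Within clones, 6 of 27 members were lower and 2 higher with treatment in both, and 19 went opposite ways. The median log2 ratio was -0.03 in clone 3 and -0.01 in clone 4. Summed over all members, treated against untreated log2 ratios were -0.03 in clone 3 and 0.03 in clone 4. H1-3 had 237.9 normalized counts without and 207.5 with GSK126 in clone 3, and 207.5 without and 360.8 with it in clone 4, and thus stayed far below the parental 4167.7 in both states.

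Of 13 histone genes that are replication-independent or lie outside the clusters, 12 were tested and 3 were lower in EIR cells. Over all genes tested, 13.2% were called lower and 12.4% higher. The median log2 fold change of the 12 was -0.33. MACROH2A2, a macroH2A variant linked to silent chromatin, had 3088 normalized counts in the parental library and 1289.6, 1066.1, 1557.5 and 1055.9 in the EIR libraries (fitted log2 fold change -1.31, SE 0.29, adjusted p = 0.0001013 by DESeq2). The linker variant H1-10 was at -1.14 (adjusted p = 0.0003409 by DESeq2), a call lost with GC offsets, and H3-3A, which encodes H3.3, was at -0.58 (0.01547), a call lost in edgeR. With GC offsets H2AX was called higher in EIR cells. H3-3B, which like H3-3A encodes H3.3, was at 0.14 and H2AZ1 at 0.31, and neither was called (adjusted p = 0.6419 and 0.314 by DESeq2). Between the clones, H2AX, the variant phosphorylated at DNA breaks, was higher in clone 4 with 2797.5 and 2804.7 normalized counts against 1448.9 and 1994.3 in clone 3 (log2 fold change 0.71, SE 0.19, adjusted p = 0.003905 by DESeq2).

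Of 22 genes for transcription and 3' end processing of histone messages, 4 were higher and 4 lower in EIR cells. These counts lie near the 12.4% of all genes called higher and 13.2% called lower. SLBP, the stem-loop binding protein, had 3049.7 normalized counts in the parental library and 2774.6, 3188.1, 2500.3 and 2551.8 in the EIR libraries and was not called (-0.15, SE 0.21, adjusted p = 0.6694 by DESeq2). NPAT, the coactivator of histone genes, had 609.3 in the parental library and 873, 1097.6, 895.4 and 983.9 in the EIR libraries, which gave a log2 fold change of 0.66 (SE 0.23, adjusted p = 0.01878 by DESeq2) that was not called with GC offsets. CASP8AP2, a protein of histone locus bodies, was higher at 0.96 (adjusted p = 0.003585), a call also lost with GC offsets. LSM11, a subunit of the U7 particle that cleaves histone messages, was lower at -0.72 (0.004648), and MIF4GD, a partner of SLBP in translation, was lower at -1.12 (0.0001393). With GC offsets CSTF2 and SRRT were higher and LSM11 and MIF4GD lower, beside 9.89% of all genes higher and 9.04% lower. The edgeR test called 1 lower (MIF4GD), beside 3.6% of all genes.

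Of 19 histone chaperones and partners, 4 were called, all higher in EIR cells, and the median log2 fold change was -0.16. Among all genes tested, 12.4% were called higher and 13.2% lower. ATRX, which deposits H3.3 with DAXX, had 2805 normalized counts in the parental library and 6020.4, 7928.5, 7056.2 and 6262.1 in the EIR libraries (fitted log2 fold change 1.28, SE 0.23, adjusted p = 4.815e-07 by DESeq2). MMS22L, which acts on new H4 at replication forks, was at 1.06 (7.228e-05) but was not called with GC offsets. Also higher were HAT1, which acetylates new H4, at 0.88 (adjusted p = 0.001716), and the importin IPO4 at 0.50 (0.02701). The large subunit gene of CAF-1, CHAF1A, which loads H3 and H4 onto new DNA, was not called (-0.46, adjusted p = 0.06774). With GC offsets ATRX, HAT1 and IPO4 were higher and DNAJC9 and NAP1L1 lower, beside 9.89% of all genes higher and 9.04% lower. The edgeR test called ATRX and MMS22L higher, beside 2.13% of all genes.

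Few genes of DNA replication were called. Of 24, 1 was higher and 1 lower in EIR cells, where 12.4% of all genes were called higher and 13.2% lower. The median log2 fold change of the 24 was 0.10. CDC6, which loads the replicative helicase, was at 0.76 (SE 0.21, adjusted p = 0.002053 by DESeq2) and its partner CDT1 at -1.09 (SE 0.29, adjusted p = 0.001942). PCNA, the sliding clamp, had 8706.1 normalized counts in the parental library and 8611.8, 9933.5, 8232.3 and 8624.5 in the EIR libraries, and was not called (0.02, SE 0.18, adjusted p = 0.9434 by DESeq2). With GC offsets 5 of the 24 were higher, beside 9.89% of all genes, and CDT1 was not called. The edgeR test called CDT1 alone. Between the clones, MCM6 and CCNE2 were higher and GINS3 and CCNE1 lower in clone 4, beside 3.3% and 6.52% of all genes.

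Of 24 other protein-coding genes in the same windows, 20 had a row and 16 were tested against parental cells. Of these, 4 were called, all lower in EIR cells, beside 13.2% of all genes lower and 12.4% higher. The median log2 fold change of the 16 was -0.27. SV2A, a synaptic vesicle protein gene beside the 1q21 histone genes, had 474.4 normalized counts in the parental library and 8.3, 23.4, 3 and 21.2 in the EIR libraries (fitted log2 fold change -5.09, SE 0.90, adjusted p = 5.036e-07 by DESeq2). MTMR11, BTN3A2 and BTN3A1 were at -1.18, -0.86 and -0.81. Between the clones HFE, an iron regulator in the first 6p group, was higher in clone 4 (0.98, SE 0.23, adjusted p = 0.0004386 by DESeq2). BTN2A2 and HMGN4 were lower, where 3.3% of all genes were higher and 6.52% lower in clone 4.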

How the data were processed

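Libraries were made from total RNA with a stranded TruSeq kit, and per the labels and methods the authors aligned reads to hg19 with bowtie2 and deposited RSEM estimated counts per Ensembl gene. The annotation release, the use of strand in counting and the means of ribosomal RNA removal were not given in the sources used here. The deposited values were whole numbers. Of 30476 identifiers, 95.8% matched GENCODE 44 on GRCh37. DESeq2 1.42.0 in R 4.3.3 was fitted over the whole table with a two-sided Wald test and Benjamini-Hochberg adjustment, using all 5 libraries for EIR against parental and the 4 EIR libraries otherwise. Normalized counts are counts divided by DESeq2 size factors. edgeR 4.0.16, other scalings, count filters, GC offsets (mgcv 1.9.3), summed copies, a clone block and left-out libraries were alternatives, and the fits were tested on simulated data. RSEM divides reads among near-identical genes, which limits values of single H3 and H4 genes. Members with the highest counts per kb in each type and the largest called changes were named, with up to 4 called genes per list and SLBP, NPAT, H2AX, H2AZ1, H3-3A and H3-3B. PCNA, CHAF1A, H2AC25 and other members beyond this rule were named after their values were seen. Members and lists were chosen with earlier results of these data known. Same-clone libraries shared their deviations (r = 0.862 over 11564 genes), and the pairing comes from the clone labels.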

Additional observations from a re-analysis of the deposited data

Results flagged for a closer look

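H4C8, HIST1H4B and H4C3 differed between the clones by the test of clone 4 against clone 3. The clones are 2 single clonal lines, and whether these differences go with resistance was not tested. H4C11, the H4 gene with the most counts, was not called between them (log2 fold change 0.29, adjusted p = 0.406 by DESeq2). H4C8 differed by a log2 fold change of -8.04 (SE 0.71, adjusted p = 3.194e-27 by DESeq2), from 675 and 745 in clone 3 to 3 and 2 in clone 4. EPCAM counts split the same way (426 and 498 in clone 3, 0 and 1 in clone 4), and its part in this was not tested. HIST1H4B differed by 0.68 (SE 0.21, adjusted p = 0.01892 by DESeq2) and H4C3 by 0.56 (SE 0.19, adjusted p = 0.04211 by DESeq2), both higher in clone 4. The 4 H4 genes summed were not called, but that sum includes H4C8, which was lower in clone 4. The sum therefore cannot decide on HIST1H4B and H4C3 alone. Of 24 groups of 4 EIR libraries examined for a library that stood apart, none passed Dixon's 95% critical value.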

How the results depend on the processing

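The call count of 17 members in EIR against parental cells fell to 9 in edgeR and to 9 with GC offsets. It was 8 with GC and length offsets (added after seeing the data) and 9 (all lower) with the libraries of each clone summed. In a fit of all 5 libraries as 3 groups, 9 were called for untreated and 10 for treated EIR against parental cells, all lower. For untreated EIR, 1032 of 15114 genes tested were called lower and 966 higher. For treated EIR, 999 of 16295 were lower and 1018 higher. With 1 EIR library left out, the call count ranged from 13 to 16. Over all genes, 1492 to 1979 were then lower and 1346 to 2043 higher, of 15851 to 16265 tested. H3C14 and H3C15 were then called higher only when untreated clone 3 was left out. The split was 15 lower and 2 higher with size factors, and 6 and 3 with GC offsets. The log2 ratio of summed members, -0.69, was -0.40 with GC offsets and -0.38 with GC and length offsets, and between -0.73 and -0.65 with 1 EIR library left out. Its cause was not tested. H3C13 turned from -0.23 to 0.36, 0.40 and 0.52 with GC offsets, with GC and length offsets, and with its copies summed.

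The 3 members called between the clones became 9 with GC offsets, 8 with GC and length offsets, 6 without treatment as covariate and 0 with copies summed, and ranged from 1 to 5 with 1 library left out and no treatment covariate. Without untreated clone 3 or treated clone 3, H4C8 alone was called. H4C8 was called in all 10 alternatives that kept it apart and tested. The replicate block of clone changed no call between treated and untreated cells, where 0 members were called in every alternative. Scaling with TMM factors or total counts and the filter of 10 counts kept these counts within 1.5 times. The single parental library limits every comparison with it, since its own spread is unknown.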
